A study of Mus musculus with 2 samples.

Results

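Leukemia inhibitory factor (LIF), the other IL-6 family cytokines made by vascular mural cells, their receptors and the inhibitor SOCS3 were described in perivascular cells (PCs) with and without Kai1. The 10 genes were listed by symbol, out of 20211 gene symbols measured: the ligands Lif, Il6, Il11, Clcf1 and Ctf1, the receptor chains Lifr, Il6st, Osmr and Il6ra, and Socs3. All 10 were found. RNA sequencing compared 1 library of aortic PCs from wild-type (WT) C57BL/6 mice with 1 library of the same cells from Kai1 knockout (Kai1-/-) mice of that strain, to ask which genes depend on KAI1, a tetraspanin encoded by Cd82. Both were primary cells that had been expanded in culture, in medium that the labels give as 10% fetal bovine serum. The study's methods give a higher serum level for primary perivascular cells. The knockout allele, whether it was confined to a cell type, the number of mice pooled and the passage were not given in the sources used here, and the study's methods name adult mice of either sex without tying an age or sex to a library.

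Cytokines of the IL-6 family signal through receptor complexes that contain gp130, the product of Il6st. LIF and cardiotrophin-1 (Ctf1) bind LIFR together with gp130, IL-6 binds first to the IL-6 receptor α chain (Il6ra), IL-11 binds to its own α chain (Il11ra1), and cardiotrophin-like cytokine (Clcf1) acts through LIFR and gp130 with a further α chain. Oncostatin M acts in mice mainly through OSMR with gp130. The complexes activate JAK kinases and STAT3, and STAT3 induces Socs3, whose product binds gp130 and shuts the signal down. In blood vessels LIF is known to restrain the growth of new vessels, and IL-6 is a product of activated smooth muscle cells and fibroblasts.

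The promoters of Lif, Il6, Il11 and Socs3 are shown because these are the ligands with the lowest ratios and the gene of the family with the highest. Each covers 250 bases before and 50 after a RefSeq start site, was taken from a RefSeq table of build GRCm38.p6, and matched the mouse genome NCBI37, the build of the expression values, at a single place. The Lif promoter lies at chr11:4157321-4157620 on the plus strand, the Il6 promoter at chr5:30339404-30339703 on the plus strand, the Il11 promoter at chr7:4729694-4729993 on the minus strand and the Socs3 promoter at chr11:117830631-117830930 on the minus strand. Sequences run 5′ to 3′, and capitals mark matches to the AP-1 motif TGANTCA (Lif, Il6, Il11), the NF-kB motif GGANTTTCC (Il6) and the STAT motif TTCNNNGAA (Socs3), each searched on both strands.
Lif promoter: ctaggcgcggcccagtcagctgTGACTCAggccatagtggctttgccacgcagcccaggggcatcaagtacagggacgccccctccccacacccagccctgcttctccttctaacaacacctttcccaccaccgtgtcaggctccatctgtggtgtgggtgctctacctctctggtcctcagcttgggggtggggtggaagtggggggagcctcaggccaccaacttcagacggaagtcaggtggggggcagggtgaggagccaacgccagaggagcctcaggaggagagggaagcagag
Il6 promoter: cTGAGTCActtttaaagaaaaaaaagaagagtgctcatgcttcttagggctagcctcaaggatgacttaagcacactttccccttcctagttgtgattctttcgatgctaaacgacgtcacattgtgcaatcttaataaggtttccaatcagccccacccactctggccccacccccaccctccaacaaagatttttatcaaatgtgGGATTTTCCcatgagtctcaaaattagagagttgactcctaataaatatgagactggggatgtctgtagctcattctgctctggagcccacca
Il11 promoter: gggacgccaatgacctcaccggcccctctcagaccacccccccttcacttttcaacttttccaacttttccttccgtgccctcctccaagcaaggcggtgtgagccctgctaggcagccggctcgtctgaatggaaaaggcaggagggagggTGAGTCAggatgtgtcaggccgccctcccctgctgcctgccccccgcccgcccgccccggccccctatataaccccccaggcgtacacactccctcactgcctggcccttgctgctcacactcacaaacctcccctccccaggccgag
Socs3 promoter: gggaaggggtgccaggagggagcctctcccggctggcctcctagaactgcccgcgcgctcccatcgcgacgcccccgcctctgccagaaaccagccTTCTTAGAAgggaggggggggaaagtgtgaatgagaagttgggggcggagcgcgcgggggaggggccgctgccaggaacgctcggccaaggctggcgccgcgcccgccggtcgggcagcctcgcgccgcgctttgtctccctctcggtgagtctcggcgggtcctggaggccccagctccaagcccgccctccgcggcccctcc

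The 3 ligands with lower values in Kai1-/- PCs each held an AP-1 match, at -228 in Lif, -249 in Il6 and -98 in Il11, counted from the start site. Among the 11 promoters of 9 family genes in the table, the only other AP-1 match was that of Osmr, at position 4 with the start base as 1. Of 32851 mouse promoters of 300 bases, 7.81% held this motif. The single STAT match was that of Socs3, at -154, against 8.30% of promoters. The single NF-kB match was that of Il6, at -43, against 1.25% of promoters, and Il6 also held the only match to the C/EBP motif TTNNGNAAT, at -128, against 11.5%. The E-box CACGTG was found in the Il6ra promoter at -24, against 7.15%. The cAMP response element TGACGTCA (1.79%) and the TATA box TATAAA (13.6%) were found in none of the 11. Il11 and Lifr have a pair of start sites each in the table, and no match was found in the other Il11 window or in either Lifr window. The matches did not overlap one another. Clcf1 was not in the table.

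The 3′ untranslated regions (UTRs) carried a feature that separated most ligands from the receptors. TATTTAT, a core of the AU-rich elements that shorten the life of cytokine mRNAs, was found in 4 of 5 ligands, in Socs3, and in 0 of 4 receptors, against 24.0% of 19899 genes. Shown here are the 30-base windows with the most copies, which lie in the 3′ UTR at chr11:4170480-4170509 (Lif), chr5:30346267-30346296 (Il6), chr7:4725100-4725129 (Il11), chr19:4223404-4223433 (Clcf1) and chr11:117827450-117827479 (Socs3), on the minus strand for Il11 and Socs3. Capitals mark TATTTAT, and copies can overlap.
Lif 3′ UTR: gtcTATTTATtactatgtccTATTTATatt
Il6 3′ UTR: atttatgattgaTATTTATtatttttatga
Il11 3′ UTR: ccagatctTATTTATTTATTTATtttggta
Clcf1 3′ UTR: aTATTTATTTATttggagatgtTATTTATt
Socs3 3′ UTR: ttgcacataTATTTATATTTATactcagaa

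Il11 held 6 copies in a UTR of 500 bases, and as many were found in 0.0911% of UTRs of 0.8 to 1.25 times that length. Clcf1 held 4 copies in 922 bases (0.452% of UTRs of like length) and Lif held 5 in 3180 bases (0.872%). Socs3 held 2 copies in 1474 bases (9.89%) and Il6 held 1 in 420 bases (10.3%). Lifr held no copy in 6320 bases, whereas 69.1% of UTRs of like length held at least 1. For the other receptors this share was 43.3% (Il6st), 36.5% (Osmr) and 37.2% (Il6ra). It was 52.6% for Lif, 32.6% for Socs3, 22.4% for Clcf1, 12.3% for Il11 and 10.3% for Il6. The element was thus present in ligands whose values were lower (Lif, Il6, Il11) and in Clcf1, whose value was not.

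Before the family is described, the libraries themselves need to be given. Values are RPKM, read counts scaled by transcript length and by the mapped reads of a library, with 1 value per gene and library, so no test between genotypes was possible and differences are those between these 2 libraries. Ratios are log2 of (Kai1-/- RPKM + 0.1) over (WT RPKM + 0.1), and a gene was called lower or higher when this was past 1 in size, a 2-fold difference, and its mean RPKM was at least 1. The steps between low RPKM values gave about 29500000 reads for WT and 26800000 for Kai1-/-, and 95% intervals computed from these estimated reads cover counting error only. Cd82 was at 12.8 RPKM in WT and 2.62 in Kai1-/-, 20.5% of WT, with a log2 ratio of -2.25. The 4 Y-linked genes looked at, Ddx3y, Eif2s3y, Kdm5d and Uty, were at 0.479 to 6.56 RPKM in WT and all at 0 in Kai1-/-. This is the pattern of a male WT and a female Kai1-/- culture, so sex and genotype cannot be told apart. Of 10068 genes, 786 (7.81%) were lower and 803 (7.98%) higher, and with both libraries scaled to the same upper quartile these counts were 1257 and 447, and with Gapdh made equal 1868 (18.6%) and 279 (2.77%). The median log2 ratio of all these genes was 0.08 as deposited, -0.19 at equal upper quartiles and -0.41 at equal Gapdh (4238 RPKM in WT and 5997 in Kai1-/-).

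Of the 10 family genes, 2 (20%) were called lower, Lif and Il6, against 7.81% of all genes, and 0 were called higher, against 7.98%. The count lower was 3, with Il11 added, in 4 of the 5 other pseudocounts and scalings, 1 with a pseudocount of 1 RPKM, where Lif (-0.94) was not called, and 0 when a mean of at least 5 RPKM was required. The median ratio was 0.23 over the 10 genes, -0.94 over the 5 ligands and 0.28 over the 4 receptors, beside 0.08 over all genes, and at equal Gapdh the median of the 10 was -0.27 beside -0.41. Individual ratios ran from -1.93 (Il6) to 0.78 (Socs3). The ratios of ligands and receptors therefore overlapped.

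**Figure D1:**
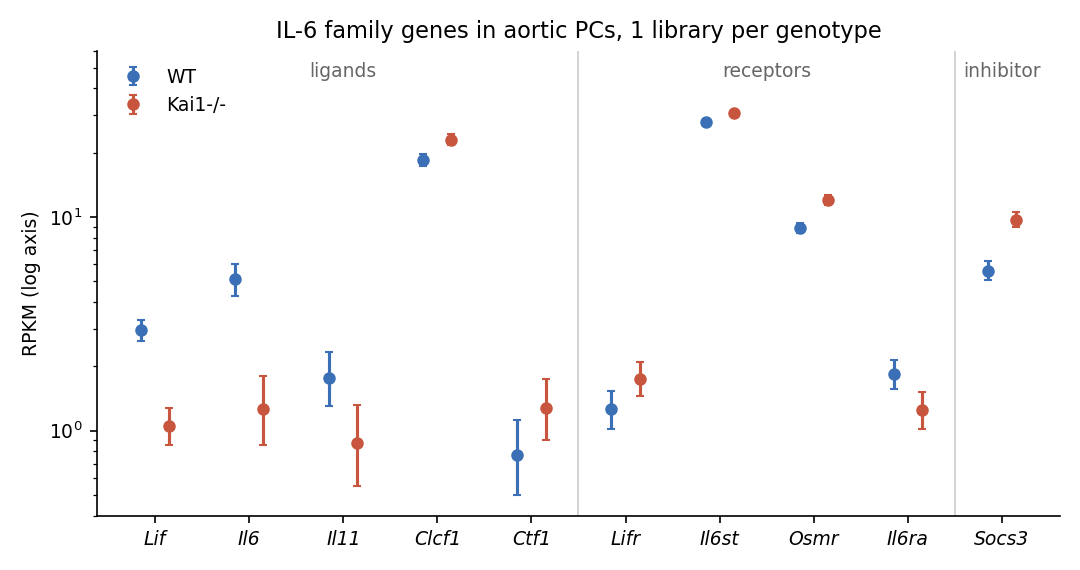
Level of each family gene in the WT and the Kai1-/- library, in RPKM on a log axis, with bars for the 95% counting interval of the estimated reads. Lif, Il6, Il11 and Il6ra lay lower in Kai1-/-, and the remaining 6 lay higher as deposited, of which Clcf1, Lifr, Il6st and Osmr lay lower once Gapdh was made equal, Il6st also at equal upper quartiles.

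Lif was at 2.95 RPKM in WT and 1.05 RPKM in Kai1-/- PCs, 35.7% of the WT level. The log2 ratio was -1.40, and 4.41% of all genes had a lower one. Without a pseudocount the log2 ratio was -1.49 with a counting interval of -1.83 to -1.16, from about 313 and 101 reads, so the difference was larger than counting error. The gene lies at chr11:4157560-4172517 on the plus strand. Its neighbour Osm, which encodes oncostatin M and ends 16.5 kb before it on the same strand, was near 0 in both libraries, at 0.0792 RPKM in WT and 0.0219 in Kai1-/-.

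Il6 encodes the cytokine that gives the family its name, and had the lowest ratio of the 10. It was at 5.11 RPKM in WT and 1.27 RPKM in Kai1-/-, 24.8% of WT, with a log2 ratio of -1.93, and 2.46% of all genes had a lower one. The counting interval of the ratio without pseudocount ran from -2.63 to -1.43 (about 134 and 30 reads). Il6 lies at chr5:30339701-30346508 on the plus strand.

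Il11, a cytokine of fibroblasts and smooth muscle cells, was at 1.76 RPKM in WT and 0.875 RPKM in Kai1-/-, 49.6% of WT. Its log2 ratio of -0.94 missed the 2-fold limit by a narrow margin, and its counting interval, about -1.01 without pseudocount, ran from -1.81 to -0.26 (about 50 and 22 reads). These 3 ligands together with Ctf1 summed to 10.6 RPKM in WT and 4.47 in Kai1-/-. Il11 lies at chr7:4724669-4734460 on the minus strand.

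Clcf1 did not share the lower level. It was the most abundant of the 5 ligands, at 18.5 RPKM in WT and 23.0 RPKM in Kai1-/-, with a log2 ratio of 0.32 as deposited and -0.18 at equal Gapdh. Clcf1 made up 63.6% of the RPKM of the 5 ligands in WT and 83.8% in Kai1-/-, Lif 10.1% and 3.82%, and Il6 17.6% and 4.61%, shares that no scaling of the libraries can alter. Because of Clcf1 the summed level of the 5 ligands was similar, at 29.1 RPKM in WT and 27.5 in Kai1-/-. Clcf1 lies at chr19:4214238-4223490 on the plus strand.

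Ctf1 was the lowest of the 5 ligands in WT. It was at 0.768 RPKM in WT and 1.28 RPKM in Kai1-/-, with a log2 ratio of 0.67 (0.73 without pseudocount, counting interval -0.019 to 1.51), so the difference was within counting error. Its end overlaps that of Ctf2 on the other strand of chromosome 7, at chr7:134856250-134861699 on the plus strand for Ctf1, and Ctf2 was listed at 0 in both libraries. Of the ligands outside the 10, Cntf was at 9.71 and 8.46 RPKM, Ebi3 at 0.28 and 0, and Il27 and Il31 were listed at 0 in both libraries. Cntf passed the filter and was not called.

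**Figure D2:**
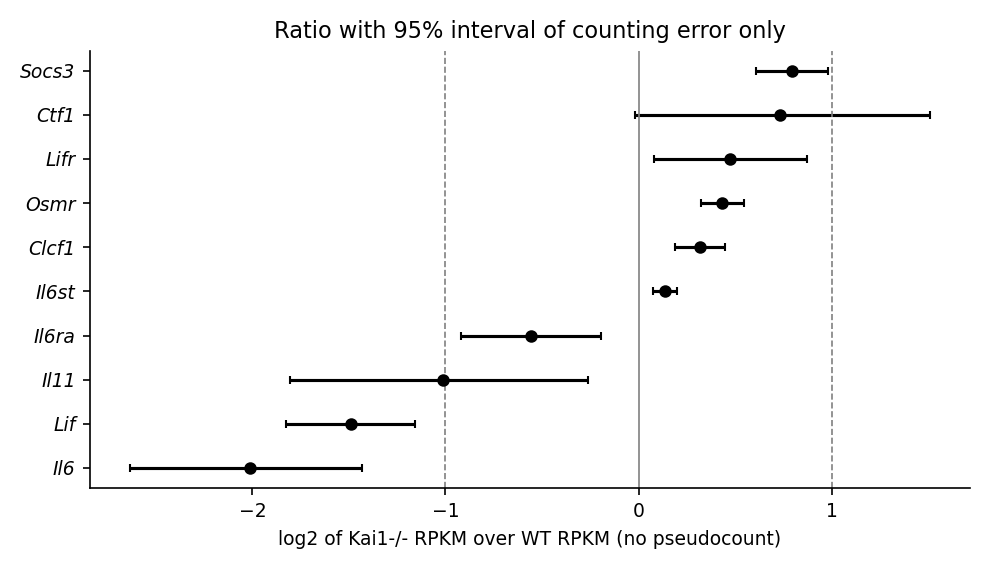
Log2 ratio of Kai1-/- over WT, without pseudocount, for the 10 genes in order of this ratio, with bars for the 95% counting interval. Lif, Il6, Il11 and Il6ra lay wholly below 0, Ctf1 crossed 0, and the others lay above 0 as deposited, of which Clcf1, Lifr, Il6st and Osmr were below 0 at equal Gapdh, Il6st also at equal upper quartiles.

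The 4 receptor chains lay closer to their WT levels than Lif, Il6 and Il11 did, and 0 of 4 were called. Il6st, the shared signal transducer, was the highest of the 10 genes at 28.0 RPKM in WT and 30.7 RPKM in Kai1-/-, with a log2 ratio of 0.13 as deposited, -0.14 at equal upper quartiles and -0.36 at equal Gapdh. Osmr was at 8.88 RPKM in WT and 12.0 RPKM in Kai1-/-, a log2 ratio of 0.43 that was -0.07 at equal Gapdh. Lifr, the chain that LIF binds, was at 1.26 RPKM in WT and 1.75 RPKM in Kai1-/- (log2 ratio 0.44, or -0.02 at equal Gapdh, from about 98 and 123 reads). Against Lifr in the same library, Lif was thus lower in Kai1-/-. Osmr and Lifr are neighbours on chromosome 15, 255 kb apart.

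Il6ra, the chain that gives a cell its direct response to IL-6, was the only one of the 4 chains with a lower value as deposited (at equal Gapdh all 4 were lower), at 1.84 RPKM in WT and 1.25 RPKM in Kai1-/-. Its log2 ratio was -0.52, and without pseudocount -0.56 with a counting interval of -0.92 to -0.20. Il6ra kept its sign in all 5 other pseudocounts and scalings, at -0.33 to -0.99. The ratio of Il6st to Il6ra was 15.2 in WT and 24.6 in Kai1-/-, whereas that of Il6st to Lifr was 22.2 and 17.6 and that of Il6st to Osmr 3.15 and 2.56. Il11ra1, which pairs with gp130 for IL-11, was at 28.6 RPKM in WT and 30.6 in Kai1-/-, far above Il11 itself, and Cntfr and Il31ra were at or below 0.04 RPKM in both.

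Socs3 had the highest ratio of the 10 genes. It was at 5.61 RPKM in WT and 9.71 RPKM in Kai1-/-, 1.73 times the WT level, with a log2 ratio of 0.78 that did not reach the 2-fold limit and that 13.4% of all genes exceeded. Without pseudocount the ratio was 0.79 with a counting interval of 0.61 to 0.98 (about 389 and 610 reads), and it stayed above 0 in all 5 other pseudocounts and scalings, from 0.29 to 0.79. Socs3 was 1.90 times as abundant as Lif in WT and 9.25 times in Kai1-/-, a within-library ratio that scaling does not alter. The gene lies at chr11:117827393-117831361 on the minus strand.

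In both libraries Il6st, Clcf1, Osmr and Socs3 were the 4 highest of the 10, in that order. The counting intervals of Socs3 and Il6 overlapped in WT, as did those of Il6ra and Il11, Il11 and Lifr, and Lifr and Ctf1. Lif stood sixth in WT, apart from its neighbours. In Kai1-/- the 4 highest were apart from one another and from the rest, while all 6 others, between 0.875 and 1.75 RPKM, overlapped their neighbours in the order. Relative to Il6st in the same library, Lif was 10.5% in WT and 3.42% in Kai1-/-, Il6 18.3% and 4.13%, and Il11 6.31% and 2.85%, while Socs3 was 20.0% and 31.6%.

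**Figure D3:**
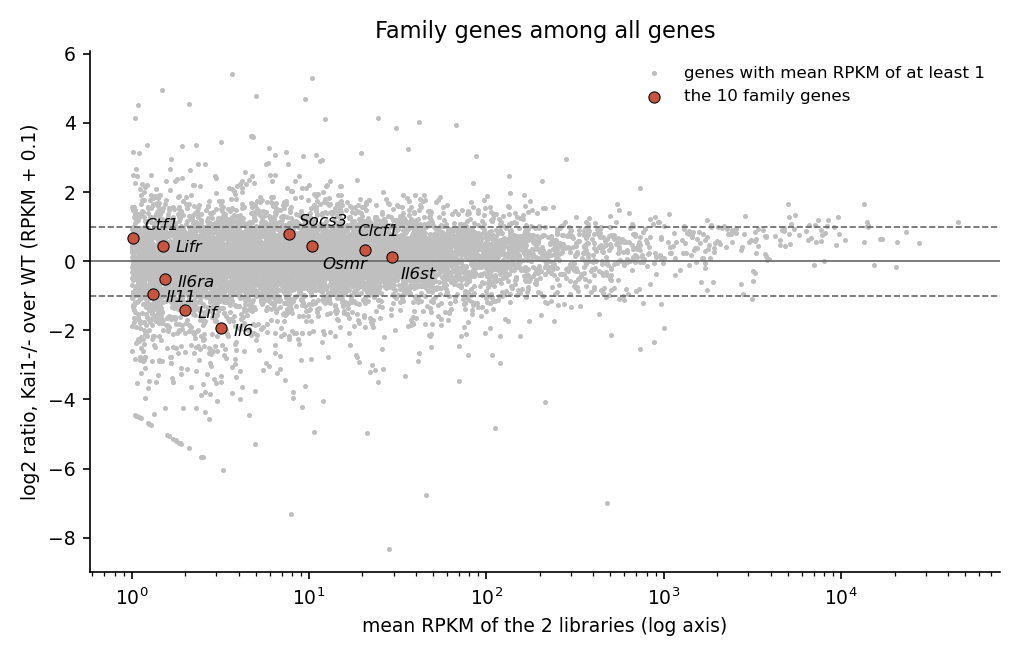
Mean RPKM of the 2 libraries on a log axis against the log2 ratio of Kai1-/- over WT, for the 10068 genes past the filter on mean RPKM (grey) and the 10 family genes (red), with dashed lines at 2-fold. Lif and Il6 lie below the lower line, Il11 just above it, and no family gene lies above the upper line.

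The genes whose pair of values was most like that of Lif were Ttc28 (3.01 RPKM in WT and 1.13 in Kai1-/-), Pcmtd1 (2.80 and 0.989) and Lyrm1 (2.77 and 1.12). Their distances on the log2(RPKM + 0.1) scale over the 2 libraries were 0.101, 0.105 and 0.118, and 20 genes lay within 0.25. With 2 libraries such likeness is a description of a level and a ratio.

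The median of the signal transducers, the JAK kinases, STAT factors and adaptors such as Grb2 and Shc1, lay below that of all genes. Of 16 transducers 15 passed the filter, with 0 lower and 0 higher, beside 7.81% and 7.98% of all genes. Their median was -0.19, beside 0.08 over all genes. At equal Gapdh 4 of the 15 were lower, Jak1 and Stat3 among them, and 0 higher, beside 18.6% and 2.77% of all genes. Stat3, the main STAT of the family and the most abundant transducer, was at 43.2 RPKM in WT and 29.6 in Kai1-/- (-0.54). Jak1, the kinase most used by gp130, was at 32.1 and 17.2 RPKM (-0.89), and Stat6, a mediator of IL-4 signals, at 20.6 and 28.6 RPKM (0.47, below 0 at equal Gapdh). Among 14 inhibitors other than Socs3, 1 was lower and 0 were higher, beside 7.81% and 7.98% of all genes, with a median of 0.11. At equal Gapdh 3 of the 14 were lower and 0 higher, beside 18.6% and 2.77% of all genes. The inhibitor lower as deposited was Cish, a STAT5-induced relative of Socs3, at 3.19 RPKM in WT and 0.859 in Kai1-/- (-1.78). Socs2, a brake on growth hormone signals, was at 25.3 and 17.7 RPKM (-0.51). Cish and Socs3 thus lay in opposite directions, under every scaling tried. The reads estimated for Cish were few (about 16 and 4), and its counting interval without pseudocount ran from -3.93 to -0.26. Both rest on its shortest coding transcript, of 371 bases. Its longest has 2850 bases, so the true reads may be more and the interval narrower.

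Genes known to respond to STAT3 were called in both directions. Of 23 such genes that passed the filter, 3 were lower and 6 higher, beside 7.81% and 7.98% of all genes, with a median of -0.02. At equal Gapdh 6 of the 23 were lower and 3 higher, beside 18.6% and 2.77% of all genes. Lower were Icam1, an adhesion molecule for leukocytes (6.69 RPKM in WT and 0.704 in Kai1-/-, -3.08), the protease inhibitor Serpina3n (15.9 and 2.10, -2.86) and the kinase Pim1 (13.0 and 3.11, -2.03). Higher under every scaling were 3 acute phase genes, the copper carrier Cp (1.34 and 10.1, 2.83), the haemoglobin binder Hp (4.43 and 20.7, 2.20) and the iron-siderophore binder Lcn2 (18.9 and 65.4, 1.79). Pim3 (3.50 and 7.74, 1.12), Nfil3 (10.7 and 22.1, 1.04) and Saa3 (49.8 and 102, 1.03) were also higher as deposited and were not called at equal Gapdh. Many genes in this list also answer to other signals.

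Il6 is also a target of NF-kB, and 15 of 22 NF-kB and inflammatory genes passed the filter, with 3 lower, 2 higher and a median of -0.43, beside 7.81% lower, 7.98% higher and a median of 0.08 over all genes. Lower were Ptgs2, the inducible cyclooxygenase (8.66 RPKM in WT and 2.20 in Kai1-/-, -1.93), Zc3h12a, an RNase that degrades Il6 mRNA (7.27 and 1.75, -2.00), and the macrophage growth factor Csf1 (428 and 169, -1.34). Higher as deposited, though not called at equal Gapdh, were the chemokine Cxcl1 (64.6 and 154, 1.25) and the transcription factor Irf1 (5.49 and 13.5, 1.29). At equal Gapdh 6 of the 15 were lower and 0 higher, beside 18.6% and 2.77% of all genes. A short list held the angiogenic genes Vegfa, Fgf2, Pdgfb, Kdr, Dll4 and Angpt2, taken from the readouts used for PCs given recombinant LIF. Of these 6, 3 passed the filter, with 1 lower and 0 higher, beside 7.81% and 7.98% of all genes. Fgf2, a growth factor for endothelial cells, was lower (4.94 and 0.684, -2.68). Angpt2 was at 9.77 and 5.89 (-0.72) and Vegfa at 45.2 and 35.2 (-0.36), while Pdgfb, Kdr and Dll4 were under the filter. At equal Gapdh 2 of the 3 were lower, Fgf2 and Angpt2, beside 18.6% of all genes. The paper reports that LIF lowered these genes in a pericyte cell line, whereas here Lif itself was lower in Kai1-/-.

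**Figure D4:**
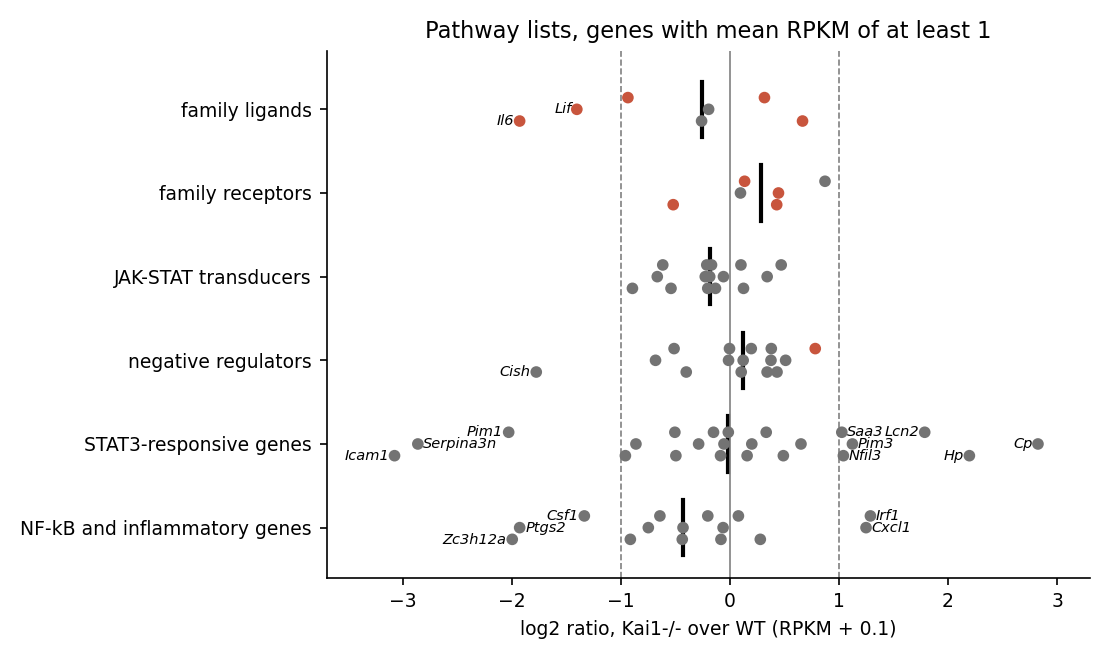
Log2 ratio of Kai1-/- over WT for the genes of 6 lists that passed the filter, where each point is a gene, red points are family genes, black bars are list medians and dashed lines mark 2-fold. No JAK-STAT transducer lay past a line as deposited, and 4 lay below at equal Gapdh. Of the STAT3-responsive genes 3 lay below and 6 above as deposited, or 6 below and 3 above at equal Gapdh. Of all genes 7.81% were lower and 7.98% higher as deposited, or 18.6% and 2.77% at equal Gapdh.

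Most cell type markers that passed the filter had lower values in Kai1-/-, as Lif, Il6 and Il11 did. The part of the markers in the result was not tested. In bulk RNA, fewer cells of a type and less RNA per cell cannot be told apart. Mural markers were present, with Acta2 at 3823 RPKM in WT and 2580 in Kai1-/- and Pdgfrb at 44.7 and 31.6, although the pericyte markers Rgs5 (0.06 and 0.23) and Abcc9 (0.04 and 0.03) were near 0 and Kcnj8 was at 0 and 0.79. Of 7 mural markers that passed the filter, 4 were lower (Tagln, Myh11, Cnn1 and Mcam) and 0 higher, beside 7.81% of all genes lower, and the sum over all 13 was 4646 RPKM in WT and 2978 in Kai1-/-. Of 7 fibroblast markers 4 were lower (Pdgfra, Ly6a, Pi16 and Dpt) and 0 higher, beside 7.81% and 7.98% of all genes. Dcn was not called (10.8 and 8.22, -0.39), and Col3a1 lay the other way without being called (67.5 and 101, 0.59). The sums over all 8 were 2363 and 1214 RPKM, mostly Ly6a (1354 and 569) and Col1a1 (924 and 534). The sum of 10 macrophage markers, cells that make IL-6, was 16.4 RPKM in WT and 4.23 in Kai1-/-. Csf1r (11.7 and 2.66) and Lyz2 (3.44 and 1.09) made up most of it, Cd68 was at 1.17 and 0.464, Ptprc at 0.0407 and 0.00697, Mrc1 at 0.0330 and 0, Itgam was at most 0.00268 in either library, and Emr1, Fcgr1, C1qa and C1qb were at 0 in both. The 8 endothelial markers summed to 1.30 RPKM in WT and 0 in Kai1-/-, and the 6 lymphocyte markers to 0.118 and 0.299.

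**Figure D5:**
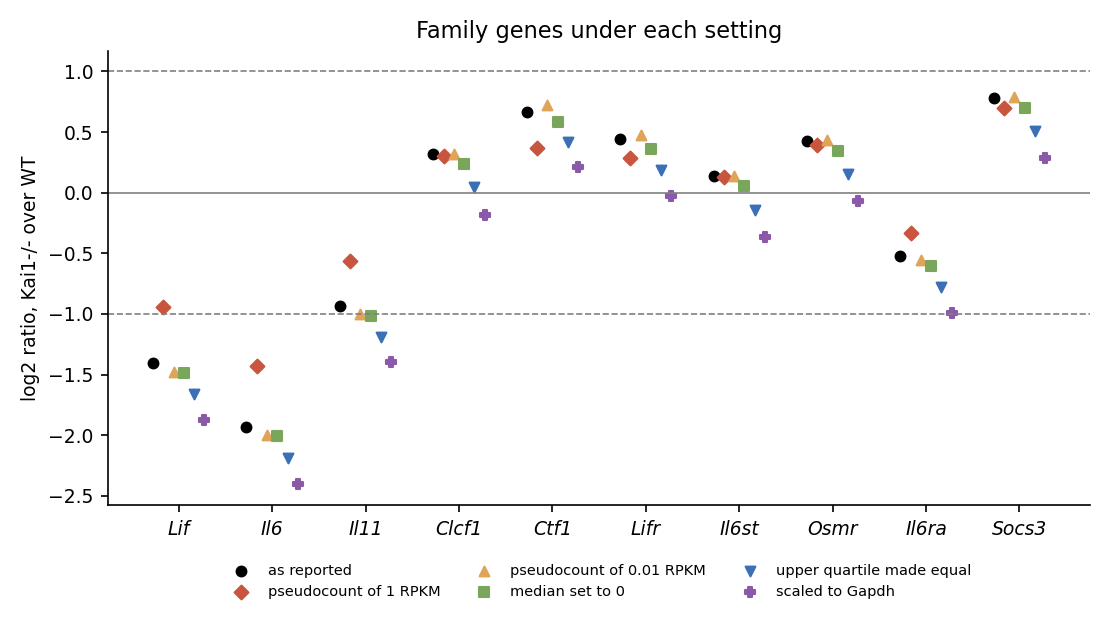
Log2 ratio of Kai1-/- over WT for each family gene as reported and under 5 other pseudocounts and scalings, with dashed lines at 2-fold. Il6 stayed below the lower line in all, Lif in all but the pseudocount of 1 RPKM, and Clcf1, Lifr, Il6st and Osmr crossed 0 at equal Gapdh, Il6st also at equal upper quartiles.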

How the data were processed

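RNA of cultured aortic PCs was sequenced from 1 WT and 1 Kai1-/- library. The authors deposited 1 RPKM value per RefSeq gene and library (reads scaled by transcript length and by mapped reads) after alignment to mm9 with TopHat2 2.0.9 and Bowtie. The submitters' processing notes also name Cufflinks. Read totals were not given in the sources used here. They were estimated from the steps between low RPKM values, of which 81.2% (WT) and 77.4% (Kai1-/-) lay within 0.15 of a whole read, and reads per gene rest on the shortest coding transcript. As RPKM sums differed between the libraries (884463 in WT and 1238190 in Kai1-/-), 3 other scalings were tried.

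Repeated symbols were averaged. Exact 95% intervals (Poisson for levels, Clopper-Pearson for ratios) cover counting error only, and no p-value was computed. The genes and lists were chosen with earlier results of these data known. Named were the 10 genes, Cd82, Gapdh and the 3 nearest to Lif. Further named genes were list genes past 2-fold or among the highest 3 of a list by mean RPKM, not all of which are given. Other genes in the text, such as low family genes and markers, were chosen after their values were seen. Gene positions and 3′ UTRs came from GENCODE M1 on NCBI37. Python 3.11.15, numpy 2.4.6, pandas 2.3.3, scipy 1.17.1 and matplotlib 3.10.9 were used. Some items of the lists are not reported here.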

Additional observations from a re-analysis of the deposited data

How the results depend on the processing

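No paired analysis was possible because there is 1 library of WT and 1 of Kai1-/- cells, and no replicate could be left out. Of 50 recomputed ratios of the 10 genes, 45 kept their sign and 37 moved by less than the counting error. The ratio of Lif was -0.94 with a pseudocount of 1 RPKM and -1.87 at equal Gapdh. With that pseudocount 1 of the 10 genes was called lower. With a minimum mean of 5 RPKM, 0 were called lower, since Lif and Il6 did not reach that level. The ratio of Il11 passed 2-fold in 4 of the 5 settings, at -1.02, -1.19 and -1.40 with other scalings and just past it with a pseudocount of 0.01 RPKM. At equal Gapdh the median of the 10 genes was -0.27 and that of all genes -0.41. Over all genes, 1257 were lower and 447 higher at equal upper quartiles, 1868 and 279 at equal Gapdh, 1878 and 1205 with no filter, and 350 and 511 with a minimum mean of 5 RPKM. At equal upper quartiles and at equal Gapdh the medians were -0.45 and -0.67 for JAK-STAT transducers, -0.29 and -0.51 for STAT3-responsive genes, and -0.69 and -0.91 for NF-kB and inflammatory genes. The median of inhibitors was -0.38 at equal Gapdh, and that of NF-kB and inflammatory genes was -0.20 with a minimum mean of 5 RPKM. The list counts under other scalings were added after seeing the data. Depth limits the genes near 1 RPKM, such as Ctf1 and Il11, most, and the spread between animals or cultures is unknown.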
